A study of Mus musculus with 8 samples.

Results

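The 40 genes described here encode the machinery that drives and restrains cell division: 5 cyclins and kinases of G1, 7 of S phase and mitosis, 6 inhibitors of cyclin-dependent kinases, 5 pocket proteins and transcription factors, 10 factors of DNA replication and nucleotide supply, and 7 genes of mitosis that are used as proliferation markers. They were taken by symbol from the 46959 entries of the deposited expression table, and all 40 were found. Of these, 24 reached the level needed for a test (1 RPKM or more in at least 2 libraries), and 16 did not. RPKM counts the reads of a gene per kilobase of its exons and per 1000000 reads of the library.

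RNA was sequenced from 3 populations of islet cells sorted from adult mice. The transdifferentiated cells (2 libraries, 1 male and 1 female) are labelled as alpha transdifferentiated cells and carry a lineage mark of alpha cells. The alpha cells (3 libraries, 2 male and 1 female) make glucagon, and the beta cells (3 libraries, 1 male and 2 female) make insulin. Per the labels, the animals were triple transgenic: Ins1-H2b-mCherry places a red protein in nuclei of cells with an active Ins1 promoter, Gcg-cre expresses a recombinase from the glucagon gene, and a floxed YFP allele is switched on by that recombinase and stays on. All groups share these alleles, and no group without them was used here, so effects of the alleles themselves cannot be told apart from those of the cells. The mark records recombinase activity at any time before sorting and does not date it. Each library was made from islets of 10 to 12 animals pooled by sex and kept overnight in medium with 5.5 mM glucose, so levels are means over animals and over cells, after a night outside the animal. The design text also speaks of bitransgenic females without saying which libraries these are. In such bulk libraries, fewer cells of a type and less RNA per cell cannot be told apart.

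Adult islet cells divide rarely. In G1, cyclins of the D type join Cdk4 or Cdk6 and phosphorylate the retinoblastoma protein family, which releases E2F factors to switch on genes of DNA replication. Inhibitors of the Cip/Kip family (p21, p27, p57) and of the Ink4 family (p16, p15, p18) hold these kinases back, and cyclin A, cyclin B and Cdk1 act later, in S phase and mitosis. In mice, cyclin D2 and Cdk4 are the pair that beta cells depend on for growth after birth, and p27 and p16 are among the inhibitors that limit it.

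The sorts carried the hormone and factor genes of their names. The summed level of 7 beta cell markers was 108000 and 118000 RPKM in transdifferentiated libraries, 1050 to 1380 RPKM in alpha libraries and 148000 to 202000 RPKM in beta libraries. For 6 alpha cell markers it was 20200 and 20300 RPKM in transdifferentiated libraries, 176000 to 204000 RPKM in alpha libraries and 620 to 1960 RPKM in beta libraries. Libraries of the transdifferentiated cells were shallow, with 1244227 and 2167332 reads as read back from the RPKM steps, against 12911871 to 14094412 in alpha and 14336649 to 21395280 in beta libraries. For the 40 genes, 1 read was therefore worth 0.0574 to 0.686 RPKM in transdifferentiated replicate 1 and 0.033 to 0.394 RPKM in replicate 2, depending on the length of the gene, but only 0.00334 to 0.0661 RPKM in the alpha and beta libraries. The pairs of libraries within a group differed by more than counting noise (chi-square per degree of freedom 3.49 for the transdifferentiated pair, 12.3 to 35.4 for alpha and 24.4 to 33.6 for beta pairs). For the same relative difference this value grows with depth, so it does not rank the groups by how alike their libraries are. Nothing in the labels says that replicates came from separate sets of animals. Alpha replicates 1 and 2, and beta replicates 1 and 2, share a number in their titles, so p-values may measure a spread that is in part technical. The titles of replicates 2 and 3 of alpha and of beta cells also carry a letter b, which the labels do not explain. Neither transdifferentiated title carries it.

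Promoters were read for the words that bind E2F, the factor at the end of the G1 pathway. The RefSeq promoters (build GRCm38.p6, 250 bases before to 50 after a RefSeq start) held 37 windows for 31 of the 40 genes. A RefSeq start can differ from the start of the gene given below. Every window of E2f1, Cdk6, Cdkn2c and Mcm7 lies inside the gene, as does 1 of 2 windows of Ccnd3, Cdkn1a, Cdkn2a and E2f2. Such windows do not hold the bases before the gene. Windows of 1 chromosome, which holds none of the 40 genes, were left out. The 4 words searched on both strands were TTTCCCGC, TTTCGCGC, TTTGCCGC and TTTGGCGC, and overlapping matches were counted. At least 1 of them stood in 9 of the 37 windows (24.3%), against 744 of all 32851 windows (2.26%). Those 9 windows belong to Cdk1, Cdk2, Cdkn2a, Rbl1, E2f2, Mcm3, Mcm5, Mcm6 and Mcm7. Cdkn2a, E2f2 and Mcm7 have 2 windows each, of which 1 held a word. By role, 4 of 10 windows of replication genes held a word, and 0 of 4 windows of G1 cyclins and kinases did. Those 4 windows are 2 of Ccnd3 and 1 each of Cdk4 and Cdk6. There was no window for Ccnd1, Ccnd2, Ccne2, Ccna2, Cdkn1c, Rb1, Foxm1, Mcm4 or Aurkb, so shares by role say nothing of these genes. TTTGAA, the word of the cell cycle homology region, stood in 9 of the 37 windows (24.3%), against 17.9% of all windows. By role it stood in 4 of 6 windows of mitosis genes, 1 of 10 of replication genes and 0 of 4 of G1 cyclins and kinases. CCAAT stood in 24 of the 37 windows (64.9%), against 37.4% of all windows, with 9 of 10 windows of replication genes and 1 of 4 of G1 cyclins and kinases. A match is a description of letters and not a measured binding site, and a missing match says only that these letters are not in this window.

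Both of the following promoters belong to subunits of the same ring, the Mcm2 to Mcm7 helicase that opens DNA for replication, and both hold E2F words. They were picked after the tests below, where Mcm5 was called and Mcm6 was not. Whether the changes of these genes differ from each other was not tested. Capitals mark the E2F words, and the sequences run along the strand of the gene. The window of Mcm5 is chr8:75109259-75109558 on the plus strand, and the window of Mcm6 is chr1:128359656-128359955 on the minus strand.
Mcm5: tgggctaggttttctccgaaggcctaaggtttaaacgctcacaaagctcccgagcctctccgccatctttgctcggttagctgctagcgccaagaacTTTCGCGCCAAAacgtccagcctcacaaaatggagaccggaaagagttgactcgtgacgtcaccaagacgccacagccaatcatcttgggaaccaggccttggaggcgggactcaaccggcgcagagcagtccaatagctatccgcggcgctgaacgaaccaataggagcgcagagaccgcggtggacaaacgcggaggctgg
Mcm6: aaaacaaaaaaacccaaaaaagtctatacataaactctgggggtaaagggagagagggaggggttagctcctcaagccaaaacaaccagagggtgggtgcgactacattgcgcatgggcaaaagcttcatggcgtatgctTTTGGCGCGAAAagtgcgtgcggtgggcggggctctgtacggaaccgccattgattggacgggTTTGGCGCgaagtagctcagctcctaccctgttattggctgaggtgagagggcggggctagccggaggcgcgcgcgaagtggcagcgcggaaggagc
The Mcm5 window holds 2 overlapping matches, 1 on each strand, whose first letters lie 153 and 149 bases before the start. The Mcm6 window holds 3 matches, an overlapping pair 110 and 106 bases before the start and a single one 47 bases before it.

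**Figure D1:**
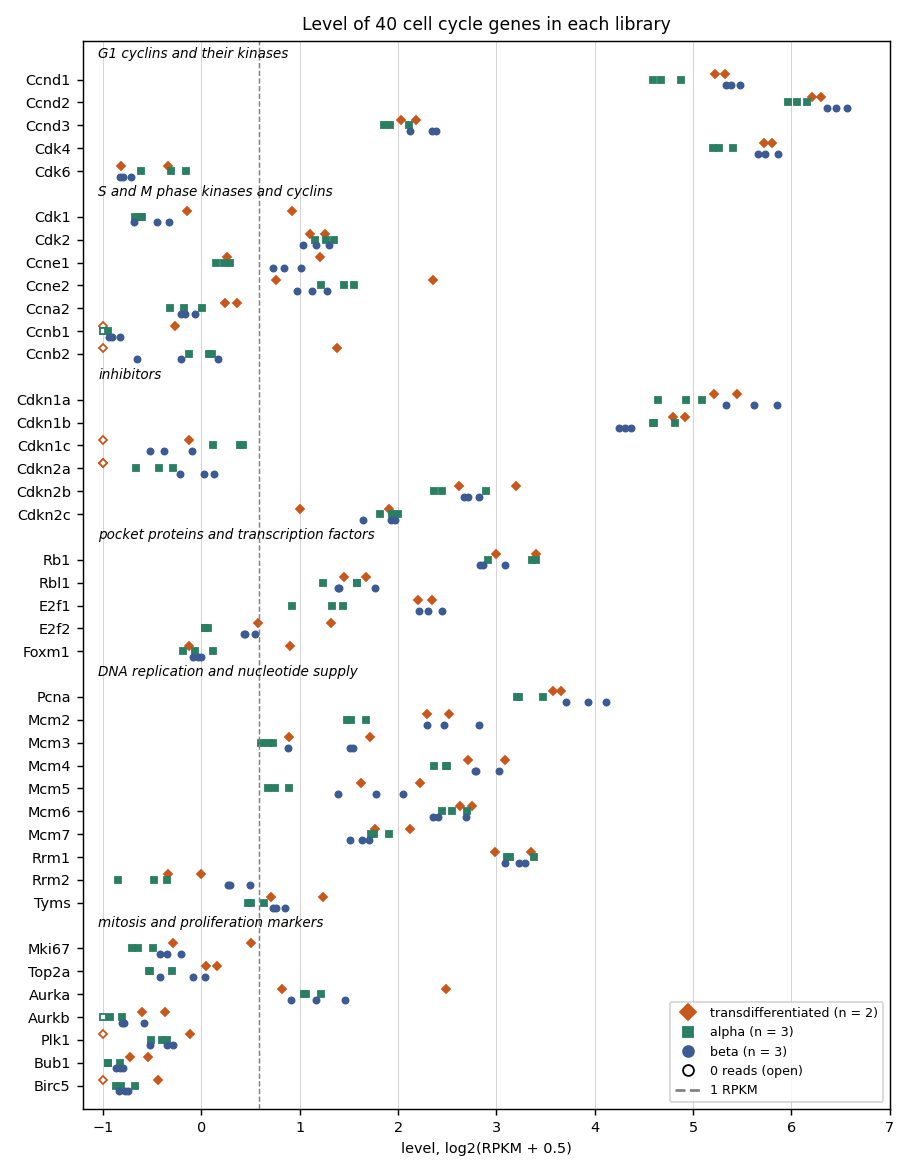
Level of each of the 40 genes in each library, as log2(RPKM + 0.5) on the horizontal axis, with genes in rows by role; diamonds are transdifferentiated (n = 2), squares alpha (n = 3) and circles beta libraries (n = 3), open marks have 0 reads and the dashed line is 1 RPKM. Ccnd1, Ccnd2, Cdk4, Cdkn1a and Cdkn1b stand at the right, and most genes of mitosis lie left of the line in every group.

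The 3 groups were compared pairwise with limma, fitted to the 8 libraries at once with terms for cell group and sex, and p-values were adjusted over all 13172 tested genes by the Benjamini-Hochberg method. A gene was called when its adjusted p was under 0.05. Fold changes are differences of log2(RPKM + 0.5), so changes of low genes come out smaller than they are.
Of the 24 tested genes, 1 was called between transdifferentiated and beta cells (4.17%), where 12% of all tested genes were called and 9.1% were called as higher. Between transdifferentiated and alpha cells 6 rose and 0 fell (25%), where 29.9% of all tested genes were called, 23.2% as higher and 6.67% as lower. Between alpha and beta cells 10 were called (41.7%), 1 higher and 9 lower in alpha cells, where 43.6% of all tested genes were called, 16.9% as higher and 26.7% as lower. The total shares are close to or below those of all genes. By direction, the 9 of 24 lower in alpha than in beta cells are a larger share than the 26.7% of all genes, and that excess was not tested, so the counts are given as no result about the cell cycle genes in particular. On recovered reads, limma voom called 1, 5 and 13 of the 24 genes in these comparisons, where it called 5.96%, 19.4% and 52.5% of all genes. Of its 13 calls between alpha and beta cells, 1 was higher and 12 were lower in alpha cells, where 22.4% and 30.1% of all genes were. The median log2 fold change of the 24 genes was 0.03 between transdifferentiated and beta cells (0.09 over all tested genes), 0.32 between transdifferentiated and alpha cells (0.17 over all), and -0.31 between alpha and beta cells (-0.05 over all). With median-ratio scaling the medians of all genes moved to -0.03, -0.04 and 0.04 in the same order of comparisons, and fold changes against alpha or beta cells are to be read relative to that shift. Against alpha cells median-ratio scaling still called 4 of the 6 genes, Ccnd1, E2f1 (0.85), Mcm2 (0.62) and Mcm5 (0.92). All 3 comparisons share libraries, so they are not independent of each other.

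**Figure D2:**
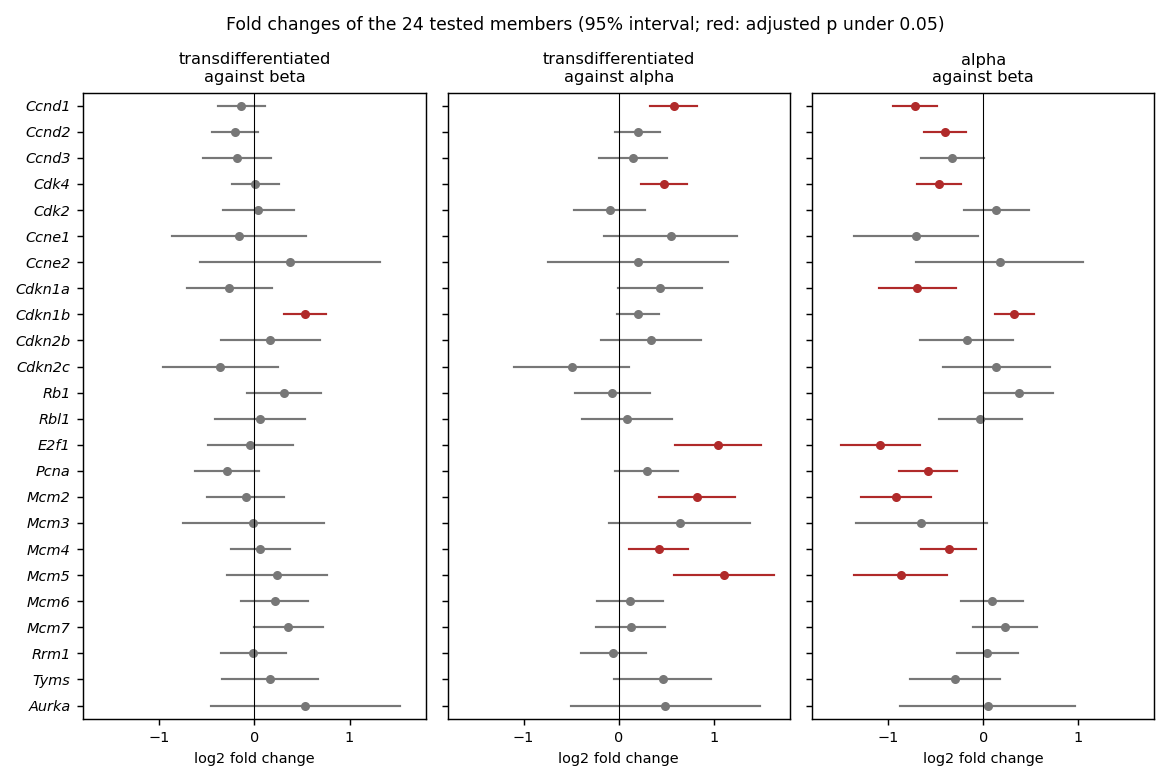
Log2 fold change of the 24 tested genes (points, with 95% intervals) in transdifferentiated against beta, transdifferentiated against alpha and alpha against beta cells; red marks an adjusted p under 0.05. Red points number 1, 6 and 10 in the 3 panels.

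Ccnd1, Ccnd2 and Cdk4 were, with the inhibitor genes Cdkn1a and Cdkn1b, the most abundant of the 40 genes per length. Ccnd1 and Cdk4 rose in transdifferentiated against alpha cells, and alpha cells had lower Ccnd1, Ccnd2 and Cdk4 than beta cells. None of the 4 tested genes of this group passed between transdifferentiated and beta cells.
Ccnd1, which encodes cyclin D1 (chromosome 7, 144929931 to 144939925), had 36.9 and 39.7 RPKM in transdifferentiated libraries, 24.997, 29.0 and 23.6 RPKM in alpha libraries and 39.9, 41.2 and 44.1 RPKM in beta libraries. Both transdifferentiated values lay above every alpha value and just below every beta value. The log2 fold change of Ccnd1 was 0.58 in transdifferentiated against alpha cells (SE 0.11, adjusted p = 0.00715), -0.71 in alpha against beta cells (SE 0.10, adjusted p = 0.00127) and -0.14 in transdifferentiated against beta cells (SE 0.11, adjusted p = 0.413). Against alpha cells it was 0.35 with median-ratio scaling (adjusted p = 0.0487) and did not pass with quantile normalization (0.31, adjusted p = 0.0524; lowest adjusted p 0.00467 over 20 alternatives).
Ccnd2, which encodes cyclin D2 (chromosome 6, 127125162 to 127152193), had the highest level of the 40 genes in each of the 8 libraries. It stood at 78.6 and 73.7 RPKM in transdifferentiated libraries, at 71.2, 66.3 and 62.1 RPKM in alpha libraries and at 93.9, 87.1 and 81.9 RPKM in beta libraries. The 3 groups did not overlap, with the transdifferentiated cells in the middle. Only alpha against beta cells passed (log2 fold change -0.40, SE 0.09, adjusted p = 0.0121), and that call was lost with median-ratio scaling (-0.31, adjusted p = 0.0539), with quantile normalization (-0.04, adjusted p = 0.776) and without alpha replicate 3 (-0.32, adjusted p = 0.105; 0.00632 to 0.776 over 20 alternatives). Transdifferentiated against alpha cells gave 0.20 (SE 0.10, adjusted p = 0.178), which median-ratio scaling and quantile normalization turned to -0.03 and -0.06.
Ccnd3, the gene of cyclin D3, was lower per length than its relatives, at 3.57 and 4.05 RPKM in transdifferentiated libraries, 3.12, 3.82 and 3.27 RPKM in alpha libraries and 4.74, 3.86 and 4.56 RPKM in beta libraries. Transdifferentiated values overlapped both other groups and no comparison passed (adjusted p = 0.454 against beta, 0.515 against alpha, and 0.099 for alpha against beta).
Cdk4, which encodes the kinase partner of these cyclins (chromosome 10, 127063534 to 127067920), had 52.2 and 55.4 RPKM in transdifferentiated libraries, 41.8, 37.8 and 36.3 RPKM in alpha libraries and 57.8, 50.009 and 52.4 RPKM in beta libraries. The transdifferentiated values fell among the beta values and above all alpha values. The Cdk4 difference was 0.48 against alpha cells (SE 0.10, adjusted p = 0.0142), -0.47 in alpha against beta cells (SE 0.10, adjusted p = 0.00781) and 0.01 against beta cells (95% interval -0.24 to 0.26). The rise against alpha cells was lost with median-ratio scaling (0.25, adjusted p = 0.201) and quantile normalization (0.17, adjusted p = 0.258), without transdifferentiated replicate 2 (0.42, adjusted p = 0.0634) and without alpha replicate 3 (0.40, adjusted p = 0.0728; 0.0082 to 0.258 over 20 alternatives). The alpha against beta call was lost with quantile normalization (-0.10, adjusted p = 0.441) and without alpha replicate 3 (-0.38, adjusted p = 0.0743; 0.00338 to 0.441 over 20 alternatives). Exons of Ccnd1, Ccnd2, Ccnd3 and Cdk4 overlap genes on the other strand (Cdk4 overlaps Tspan31), and the kit used does not mark strand, so part of these reads may belong to those neighbours.
Cdk6, the other G1 kinase, stayed below the level for a test, at 0.065 to 0.394 RPKM over all 8 libraries, and rested on 5 and 2 reads in the transdifferentiated libraries.

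Cdk2 and its partners, cyclin E1 and E2, which carry cells into S phase, passed in no comparison. Cdk2 ranged from 1.55 to 2.04 RPKM over the 8 libraries with all groups overlapping. Ccne1 had 1.81 and 0.693 RPKM in transdifferentiated libraries (6 and 4 reads), 0.611 to 0.720 RPKM in alpha libraries and 1.16 to 1.51 RPKM in beta libraries. The alpha values of Ccne1 lay below all beta values, and the difference of -0.71 (SE 0.28, adjusted p = 0.0747) did not pass, while limma voom called it. Ccna2, the gene of cyclin A2, was below the level for a test, at 0.787 and 0.678 RPKM in transdifferentiated libraries (4 and 6 reads), 0.303 to 0.504 RPKM in alpha libraries and 0.368 to 0.458 RPKM in beta libraries.

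**Figure D3:**
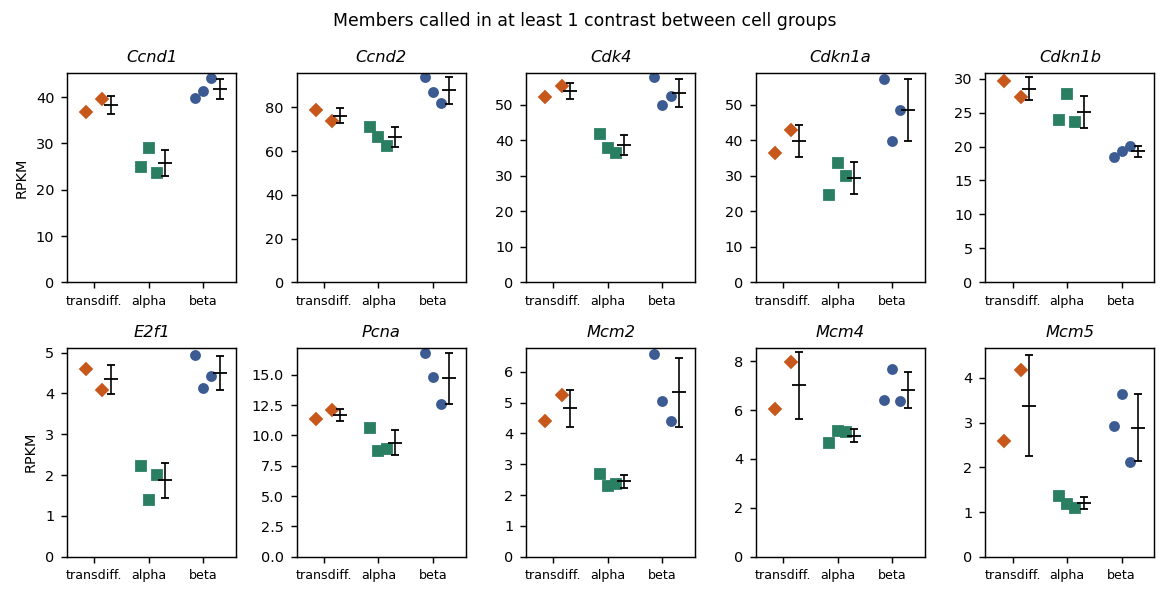
RPKM of the 10 genes called in at least 1 comparison between cell groups, with 1 point per library and the mean ± SD beside it, for transdifferentiated (n = 2), alpha (n = 3) and beta cells (n = 3); axes start at 0. E2f1, Mcm2 and Mcm5 sit in transdifferentiated cells at the height of beta cells and above alpha cells, while Cdkn1b sits above beta cells.

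The inhibitors did not move as a group. Cdkn1b was the single gene of the 40 called between transdifferentiated and beta cells, and it was higher. In alpha against beta cells Cdkn1b was higher and Cdkn1a lower, and of the 4 tested inhibitors none was called against alpha cells.
Cdkn1b encodes p27, which binds cyclin E and Cdk2 and keeps cells out of S phase (chromosome 6, 134920401 to 134925513). Its level was 29.7 and 27.3 RPKM in transdifferentiated libraries, 23.9, 27.7 and 23.6 RPKM in alpha libraries and 18.4, 19.4 and 20.1 RPKM in beta libraries. Every transdifferentiated and alpha value exceeded every beta value, and transdifferentiated and alpha values overlapped. Cdkn1b rose against beta cells, by 0.53 on the log2 scale (SE 0.09, adjusted p = 0.0186; limma voom gave an adjusted p of 0.0345). It was 0.33 higher in alpha than in beta cells (SE 0.09, adjusted p = 0.0203), and transdifferentiated against alpha cells gave 0.20 (SE 0.09, adjusted p = 0.15), which median-ratio scaling and quantile normalization turned to -0.02 and -0.06. The call against beta cells kept its direction in all 20 alternatives. It missed the threshold in 4 of them, without transdifferentiated replicate 1 (adjusted p = 0.0626), without beta replicate 1 (0.0604), without beta replicate 3 (0.0873) and with only the transdifferentiated and beta libraries in the fit (0.0631), with adjusted p of 0.0135 to 0.0873 over the 20. The alpha against beta call was lost without alpha replicate 3 (adjusted p = 0.0969), without beta replicate 1 (0.0564) and without beta replicate 3 (0.112), the lowest over the alternatives being 0.00123.
Cdkn1a encodes p21, an inhibitor induced by p53 (chromosome 17, 29090976 to 29100727). It had 36.5 and 43.0 RPKM in transdifferentiated libraries, 24.5, 33.5 and 29.8 RPKM in alpha libraries and 57.2, 39.9 and 48.6 RPKM in beta libraries. The transdifferentiated values lay above all alpha values and overlapped the beta values. Alpha against beta cells gave -0.69 on the log2 scale (SE 0.17, adjusted p = 0.0168), lost without alpha replicate 3 (adjusted p = 0.0915), without beta replicate 3 (0.106) and with quantile normalization (0.132), the lowest over the alternatives being 0.00725. Transdifferentiated cells did not pass against alpha (0.43, SE 0.19, adjusted p = 0.129) or beta cells (-0.26, SE 0.19, adjusted p = 0.376).
The Ink4 genes that could be tested, Cdkn2b for p15 and Cdkn2c for p18, passed in no comparison. Cdkn2b had 8.65 and 5.63 RPKM in transdifferentiated libraries, 4.95, 4.65 and 6.93 RPKM in alpha libraries and 5.85, 6.04 and 6.56 RPKM in beta libraries, and Cdkn2b values overlapped in every pair of groups. Cdkn2c had 1.496 and 3.26 RPKM in transdifferentiated libraries, 3.03, 3.49 and 3.33 RPKM in alpha libraries and 3.29, 2.63 and 3.401 RPKM in beta libraries. The low value of Cdkn2c in transdifferentiated replicate 1 came from 5 reads, against 19 in replicate 2. The call therefore turned on that pair: without replicate 2 the log2 fold change was -0.95 against alpha (adjusted p = 0.0165) and -0.90 against beta cells (adjusted p = 0.0435), and without replicate 1 it was 0.04 against alpha and 0.09 against beta cells.
Cdkn2a gives rise to p16 and, from a second start, to Arf, which this table does not separate (chromosome 4, 89274471 to 89294653). It was listed at 0 in both transdifferentiated libraries, while alpha libraries had 0.132, 0.318 and 0.242 RPKM (2, 5 and 4 reads) and beta libraries had 0.594, 0.518 and 0.357 RPKM (13, 13 and 6 reads). At the beta mean, 1.96 reads were expected in both transdifferentiated libraries together, so that 0 reads would come up with a probability of 14.1% by counting alone, and at the alpha mean with one of 39.8%. A count of 0 allows a pooled level of up to 0.75 RPKM (3 reads), and the 95% exact Poisson interval of the pooled level ends at 0.922 RPKM. Both limits lie above the beta mean of 0.49 ± 0.121 RPKM (SD, n = 3), so counting error alone does not separate 0 reads from the beta level. Without the filter on low values limma called Cdkn2a lower than in beta cells (-0.96, adjusted p = 0.0432), a fit that takes the listed 0 as a level and does not weigh the number of reads behind it. Cdkn1c, which encodes p57, had 0.416 and 0 RPKM in transdifferentiated libraries (1 and 0 reads), 0.842, 0.810 and 0.588 RPKM in alpha libraries and 0.194, 0.266 and 0.433 RPKM in beta libraries. Its pooled transdifferentiated level of 0.152 RPKM had an exact Poisson interval of 0.00384 to 0.846 RPKM, which holds both other means.

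Rb1 and Rbl1, which encode the pocket proteins pRb and p107, passed in no comparison, while E2f1 separated alpha cells from both other groups. E2f1, a transcription factor gene that E2F proteins themselves help to switch on (chromosome 2, 154559407 to 154569892), had 4.59 and 4.10 RPKM in transdifferentiated libraries (18 and 28 reads). It had 2.21, 1.39 and 2.002 RPKM in alpha libraries (90, 59 and 89 reads) and 4.95, 4.13 and 4.42 RPKM in beta libraries (291, 279 and 200 reads). Transdifferentiated values overlapped those of beta cells, and every alpha value lay below both. E2f1 rose in transdifferentiated against alpha cells by 1.04 on the log2 scale (SE 0.19, adjusted p = 0.00704; limma voom gave an adjusted p of 0.0304) and was lower in alpha than in beta cells (-1.08, SE 0.18, adjusted p = 0.00275). Between transdifferentiated and beta cells the difference of E2f1 was -0.04 with an interval of -0.49 to 0.41. The call against alpha cells was lost without transdifferentiated replicate 1 (0.92, adjusted p = 0.052) and held in the other 18 of 19 alternatives (adjusted p from 0.00334), and the alpha against beta call held in all 19.
Rb1 ranged from 6.61 to 10.1 RPKM and Rbl1 from 1.85 to 2.89 RPKM over the 8 libraries, with all groups overlapping. E2f2 and Foxm1 were below the level for a test. E2f2 stood at 0.988 and 1.98 RPKM in transdifferentiated libraries (6 and 21 reads), above the 0.523 to 0.549 RPKM of alpha and the 0.852 to 0.957 RPKM of beta libraries. Foxm1, which drives genes of G2 and mitosis, had 0.419 and 1.36 RPKM in transdifferentiated libraries (3 and 17 reads), 0.377 to 0.582 RPKM in alpha libraries and 0.439 to 0.494 RPKM in beta libraries, so that only replicate 2 stood above the other groups.

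Among replication genes, transdifferentiated cells differed from alpha cells in Mcm2, Mcm4 and Mcm5, which all rose, and in none of the 9 tested genes from beta cells. Alpha cells were lower than beta cells in Mcm2, Mcm4, Mcm5 and Pcna. Mcm6, Mcm7, Rrm1 and Tyms passed in no comparison, and neither did Mcm3, although limma voom called Mcm3 lower in alpha than in beta cells.
Mcm2 (chromosome 6, 88883474 to 88898780) had 4.39 and 5.24 RPKM in transdifferentiated libraries (38 and 79 reads), 2.68, 2.28 and 2.37 RPKM in alpha libraries and 6.57, 5.05 and 4.39 RPKM in beta libraries. Mcm5 (chromosome 8, 75109569 to 75128439) had 2.58 and 4.18 RPKM in transdifferentiated libraries (11 and 31 reads), 1.36, 1.18 and 1.10 RPKM in alpha libraries and 2.93, 3.63 and 2.12 RPKM in beta libraries. For both subunits the alpha values lay below all others, and transdifferentiated and beta values overlapped.
The log2 fold change of Mcm2 was 0.82 in transdifferentiated against alpha cells (SE 0.17, adjusted p = 0.0114) and -0.92 in alpha against beta cells (SE 0.16, adjusted p = 0.00353). The first of these was lost without alpha replicate 3 (0.68, adjusted p = 0.0595) and with quantile normalization (0.66, adjusted p = 0.05; lowest 0.00803 over 19 alternatives), and the second held in all 19 alternatives. Mcm5 gave 1.10 in transdifferentiated against alpha cells (SE 0.22, adjusted p = 0.0106), the largest rise among the 24 genes, and this call held in all 19 alternatives (highest adjusted p 0.0493). In alpha against beta cells Mcm5 gave -0.87 (SE 0.21, adjusted p = 0.0139), lost without alpha replicate 3 (-0.55, adjusted p = 0.106; lowest 0.00331 over 19 alternatives). Against beta cells the transdifferentiated difference was -0.09 for Mcm2 (interval -0.49 to 0.31) and 0.24 for Mcm5 (interval -0.29 to 0.76).
Mcm4 (chromosome 16, 15623897 to 15637400) had 6.05 and 7.97 RPKM in transdifferentiated libraries, 4.64, 5.13 and 5.10 RPKM in alpha libraries and 6.41, 7.67 and 6.35 RPKM in beta libraries. The order of the groups was that of Mcm2 and Mcm5, but the calls of Mcm4 sat at the threshold. Against alpha cells it gave 0.42 (SE 0.13, adjusted p = 0.0497), past the threshold in 2 of 19 alternatives (adjusted p 0.0457 to 0.269), and alpha against beta cells gave -0.36 (SE 0.12, adjusted p = 0.0478), past it in 9 of 19. Of the 8 settings that leave out 1 library, each lost the call against alpha cells.
Pcna encodes the sliding clamp of DNA polymerase (chromosome 2, 132249162 to 132253314). It had 11.4 and 12.1 RPKM in transdifferentiated libraries, 10.6, 8.75 and 8.90 RPKM in alpha libraries and 16.8, 14.8 and 12.6 RPKM in beta libraries. The transdifferentiated values stood between the other groups without overlap. Alpha against beta cells gave -0.58 (SE 0.13, adjusted p = 0.0111), lost without alpha replicate 3 (-0.43, adjusted p = 0.099) and with quantile normalization (-0.44, adjusted p = 0.0508; lowest 0.00309 over 20 alternatives). Transdifferentiated cells gave 0.29 against alpha (SE 0.14, adjusted p = 0.162) and -0.29 against beta cells (SE 0.14, adjusted p = 0.212). Pcna has named pseudogene entries in the annotation, whose reads may be split from it or counted with it.
Of the other subunits of the ring, Mcm3, Mcm6 and Mcm7 passed in no comparison by limma. Mcm6, whose promoter is printed above beside that of Mcm5, had 5.68 and 6.23 RPKM in transdifferentiated libraries, 5.36, 5.99 and 4.96 RPKM in alpha libraries and 4.80, 5.95 and 4.62 RPKM in beta libraries. Its values overlapped in every pair of groups, and transdifferentiated against alpha cells gave 0.12 with an interval of -0.23 to 0.47. Mcm3 had 2.78 and 1.35 RPKM in transdifferentiated libraries (13 and 11 reads), 1.09, 1.15 and 1.02 RPKM in alpha libraries and 2.34, 2.404 and 1.34 RPKM in beta libraries, so its alpha values lay below all others, as for Mcm2 and Mcm5. Its log2 fold change was 0.64 in transdifferentiated against alpha cells (interval -0.10 to 1.38, adjusted p = 0.17) and -0.65 in alpha against beta cells (interval -1.34 to 0.04, adjusted p = 0.112), so changes as large as those of Mcm2 could not be told from none. Mcm7 had 2.91 and 3.86 RPKM in transdifferentiated, 2.79 to 3.25 RPKM in alpha and 2.35 to 2.76 RPKM in beta libraries, and its exons overlap other genes on both strands. Tyms, which makes thymidylate for DNA, had 1.85 and 1.14 RPKM in transdifferentiated, 0.885 to 1.05 RPKM in alpha and 1.16 to 1.30 RPKM in beta libraries. Whether Mcm5 and Mcm6 differ from each other in their change was not tested. Rrm1, the large subunit of ribonucleotide reductase, stood at 7.44 and 9.70 RPKM in transdifferentiated, 8.15 to 9.93 RPKM in alpha and 8.01 to 9.27 RPKM in beta libraries. Its small subunit Rrm2, which is made mainly in S phase, was below the level for a test, at 0.290 and 0.499 RPKM in transdifferentiated libraries (1 and 3 reads), 0.056 to 0.282 RPKM in alpha libraries and 0.705 to 0.909 RPKM in beta libraries. Without the filter on low values, Rrm2 was the only 1 of the 16 low genes called in alpha against beta cells (log2 fold change -0.83, adjusted p = 0.0245, where 20.7% of all genes were called).

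Beta libraries were also the ones with most immune transcripts. The 10 immune markers summed to 37.3 and 21.5 RPKM in transdifferentiated libraries, 10.4 to 29.3 RPKM in alpha libraries and 101 to 118 RPKM in beta libraries. Of these markers, 6 reached a mean of 1 RPKM in transdifferentiated cells, 3 in alpha cells and 8 in beta cells, and all 10 were lower in both transdifferentiated libraries than in every beta library. Against alpha libraries, 7 of the 10 stood above every value in transdifferentiated replicate 1, among them Cd74 (11.97 RPKM, against at most 2.22 RPKM in alpha libraries), Ctss and Tyrobp, and 3 did in replicate 2. The defining genes Ptprc and Cd52 were at 0 in both transdifferentiated libraries. For Ptprc 0 reads allow a pooled level of up to 0.048 RPKM, below the beta mean of 0.113 RPKM, and for Cd52 up to 0.741 RPKM, above the beta mean of 0.667 RPKM. Their part in the higher E2f1, Mcm2 and Mcm5 of beta cells was not tested. In the transdifferentiated libraries E2f1 was at 4.59 and 4.10 RPKM beside immune sums of 37.3 and 21.5 RPKM. Endothelial markers (8 genes) summed to 11.8 and 5.39 RPKM in transdifferentiated libraries, 4.51 to 7.05 RPKM in alpha libraries and at most 5.12 RPKM in beta libraries. Mesenchymal markers (8 genes) summed to at most 3.07 RPKM in any library, with Acta2 at 0 in transdifferentiated and beta cells and Pdgfra at 0 in alpha cells. Delta cell markers (4 genes) summed to 3100 and 2970 RPKM in transdifferentiated libraries, 1370 to 3200 RPKM in alpha libraries and 312 to 891 RPKM in beta libraries. The acinar sum (8 genes) varied within groups, from 265 to 791 RPKM in transdifferentiated, 37.8 to 2090 RPKM in alpha and 103 to 2870 RPKM in beta libraries, with Ptf1a at 0 in transdifferentiated cells. Libraries with the letter b in their titles had the higher acinar sums, 2090 and 524 RPKM in alpha and 2870 and 1320 RPKM in beta cells. Those without it had 37.8 RPKM in alpha and 103 RPKM in beta cells. The sum of 7 duct markers was 270 and 325 RPKM in transdifferentiated, 715 to 1740 RPKM in alpha and 272 to 409 RPKM in beta libraries. That of the PP cell hormones Ppy and Pyy was 11400 and 8250 RPKM in transdifferentiated, 7960 to 13000 RPKM in alpha and 589 to 1270 RPKM in beta libraries. The part of these cells in any difference named here was not tested.

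Genes that mark cells in S phase, G2 and mitosis were low in every group, and the shallow libraries set the limit on what could be seen of them. Of the 40 genes, 33 had at least 1 read in all 8 libraries. In transdifferentiated replicate 1, 4 genes had 0 reads and 9 had under 3, and in replicate 2, 3 had 0 reads and 7 had under 3. Of the 16 genes below the level for a test, 9 would be expected to give under 3 reads in both transdifferentiated libraries together at the beta mean, and 9 at the alpha mean. The beta mean lay inside the counting interval of the pooled transdifferentiated level for 10 of the 16 genes, and the alpha mean for 9. For Cdk1, Ccnb1, Ccnb2, E2f2, Foxm1 and Mki67 the interval lay above both means. Intervals and limits cover counting error only.
Mki67, the gene of the proliferation antigen Ki-67 (chromosome 7, 135689784 to 135716361), had 0.319 and 0.916 RPKM in transdifferentiated libraries (4 and 20 reads). It had 0.138, 0.111 and 0.211 RPKM in alpha libraries (18, 15 and 30 reads) and 0.367, 0.283 and 0.249 RPKM in beta libraries (69, 61 and 36 reads). Replicate 1 stood among the beta libraries and replicate 2 above all others. The limit of 3 reads for Mki67 was 0.239 RPKM in transdifferentiated replicate 1 and 0.137 RPKM in replicate 2, so levels like those of alpha cells lay near or under it. Pooled over both libraries, 24 reads gave 0.698 RPKM with an exact Poisson interval of 0.447 to 1.04 RPKM. That interval lay above the alpha mean of 0.153 RPKM and the beta mean of 0.3 RPKM, and 20 of the 24 reads came from replicate 2.
Top2a encodes topoisomerase II alpha, which untangles chromosomes before they part (chromosome 11, 98992943 to 99024189). It had 0.535 and 0.614 RPKM in transdifferentiated libraries (6 and 12 reads), 0.189, 0.198 and 0.315 RPKM in alpha libraries and 0.523, 0.441 and 0.248 RPKM in beta libraries. Both transdifferentiated values lay above all others, though the nearest beta library was only just below. The pooled transdifferentiated level of 0.585 RPKM had an interval of 0.347 to 0.925 RPKM, which holds the beta mean of 0.404 ± 0.141 RPKM and not the alpha mean of 0.234 ± 0.0701 RPKM (SD, n = 3 each).
Cdk1, the mitotic kinase, had 1.399 and 0.402 RPKM in transdifferentiated libraries (6 and 3 reads) against 0.124 to 0.157 RPKM in alpha and 0.121 to 0.296 RPKM in beta libraries. Its cyclins showed how few reads stood behind such values: Ccnb1 had 0 and 3 reads in the transdifferentiated libraries and Ccnb2 had 0 and 7. Bub1, a kinase of the spindle checkpoint, and Aurkb, a kinase of chromosome segregation, had 1 read in each transdifferentiated library, Plk1 had 0 and 2, and Birc5, the gene of survivin, had 1 and 0. For these 4 genes both the alpha and the beta mean lay within the counting interval, and no difference was detectable at this depth.
The transdifferentiated pair was uneven in genes of mitosis. Aurka, the gene of the spindle kinase Aurora A, had 1.27 and 5.10 RPKM in the transdifferentiated libraries (4 and 28 reads), against 1.56 to 1.82 RPKM in alpha and 1.39 to 2.26 RPKM in beta libraries, and passed in no comparison (log2 fold change 0.49 against alpha and 0.54 against beta cells, SE 0.42 each). Summed over the 7 mitosis genes, transdifferentiated libraries had 13.7 (exact interval 7.96 to 21.9) and 29.5 (22.7 to 37.7) reads per 1000000, alpha libraries 8.05, 7.6 and 11.1, and beta libraries 14.0, 11.9 and 12.0. In this sum replicate 1 lay with the beta libraries and replicate 2 above all others. Most of the 64 reads of replicate 2 came from Aurka (28), Mki67 (20) and Top2a (12). The 29 mitosis genes of the wider list described below gave another order. Their sums per 1000000 were 238 and 287 in transdifferentiated, 215, 217 and 228 in alpha, and 309, 316 and 329 in beta libraries. Both transdifferentiated libraries thus lay below every beta library in the wider sum. Replicate 1 was male and replicate 2 female, so library and sex cannot be told apart in this pair. Genes of cyclin E and Cdk1 went the other way, with 20 reads of Ccne2 in replicate 1 and 9 in the deeper replicate 2 (4.598 and 1.19 RPKM), against 1.82 to 2.43 RPKM in alpha and 1.46 to 1.93 RPKM in beta libraries.
Counted by position alone, 19 of the 40 genes were higher in both transdifferentiated libraries than in every alpha library and 2 were lower, where 22.7% and 14.4% of all genes with reads were (40% and 13.1% of those that passed the filter). The 19 of 40 are a larger share than either background, and that excess was not tested, so it is given as no result about the members. Against beta libraries 7 were higher and 5 lower, where 18.9% and 13.9% of all genes with reads were (31.0% and 15.3% of those that passed the filter). Those above every library of both other groups were Cdk1, Ccna2, E2f2, Top2a and Bub1, each on 27 or fewer reads in the pair, and Cdkn2a was below all. They were named after their values were seen. These 5 and 1 of the 40 genes compare with 8.48% above and 4.06% below both groups among all genes with reads (13.1% and 2.43% of those that passed the filter), so they are no result about the members. For Bub1 the depth fixed the position, since its single read in each transdifferentiated library was worth 0.185 and 0.106 RPKM, more than the highest value of any alpha or beta library (0.075 RPKM). Against alpha libraries the same held for Aurkb, whose single reads were worth 0.273 and 0.157 RPKM, above the highest alpha value of 0.072 RPKM. Without the filter on low values, 1 of the 16 low genes was called against beta cells, Cdkn2a (-0.96, adjusted p = 0.0432, where 3.27% of all genes were called), and 1 against alpha cells, Cdkn1c (-0.80, adjusted p = 0.0489, where 15% were called). Both rest on 0 or 1 read in the transdifferentiated libraries, and the log2 fold changes there depend on the added 0.5 RPKM.

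**Figure D4:**
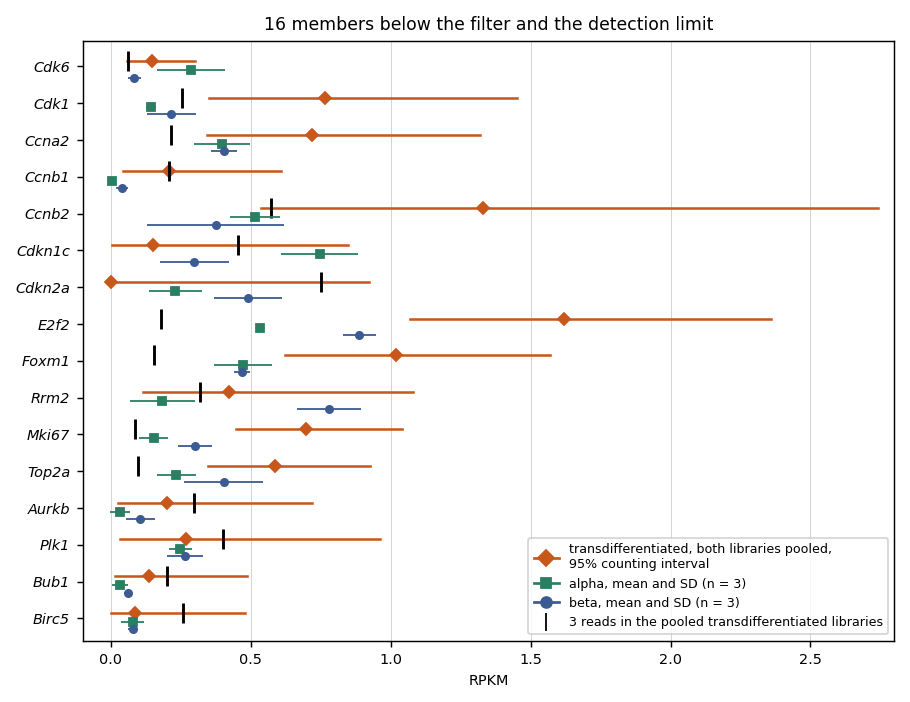
The 16 genes below the level for a test, as RPKM: diamonds and bars give the pooled level of both transdifferentiated libraries with its 95% exact Poisson interval, squares and circles the mean ± SD of alpha and beta cells (n = 3 each), and the black tick the level of 3 reads in the pooled transdifferentiated libraries. The bars reach over both other means for 9 genes, among them Cdkn2a with 0 reads, and lie above both for Cdk1, Ccnb1, Ccnb2, E2f2, Foxm1 and Mki67.

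A wider list of 101 further cell cycle genes, written from general knowledge, gave total shares of calls below those of all genes. Of its 63 tested genes, 0 rose and 2 fell in transdifferentiated against beta cells (3.17%), 14 rose and 2 fell against alpha cells (25.4%), and in alpha against beta cells 4 were higher and 13 lower (27%). The falls against beta cells were Spc25, which encodes a kinetochore protein (-0.89, adjusted p = 0.00732), and Btg1, a gene that slows proliferation (-0.57, adjusted p = 0.0487). The largest rises against alpha cells were in Ndc80, another kinetochore gene (1.204, adjusted p = 0.0369), Ccng2, which encodes cyclin G2 (0.93, adjusted p = 0.0087), and Pola2, a subunit of DNA polymerase alpha (0.89, adjusted p = 0.0145). The falls were in Orc6, of the origin recognition complex (-0.52, adjusted p = 0.0406), and Trp53, the gene of p53 (-0.47, adjusted p = 0.0154). In alpha against beta cells, Skp2, whose product marks p27 for degradation, was higher by 0.90 (adjusted p = 0.0265), Wee1, which restrains Cdk1, by 0.85 (adjusted p = 0.02) and Btg2 by 0.58 (adjusted p = 0.0345). Spc25 (-1.09), Btg1 (-1.052) and Bmi1, a Polycomb gene that holds Cdkn2a silent (-0.97), were the largest falls. By function, 4 of 28 tested replication genes rose against alpha cells and 1 fell, 2 of 8 mitosis genes rose, and 8 of 27 genes of G1 control rose and 1 fell. Among all tested genes 23.2% rose and 6.67% fell in that comparison, so these counts lie around the background and are no result about the functions.

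No difference by sex passed the test in these genes. The labels do not say how many pools of each sex were made, so sex and pool cannot be told apart here. Between male and female libraries limma called 0 of the 24 genes (0 at an unadjusted p under 0.05; 0 by limma voom), where 6 of 13172 genes were called (0.0456%). The difference between alpha and beta cells was also set against sex: limma called 0 of the 24 genes (1 at an unadjusted p under 0.05; 0 by limma voom), where 0 of all tested genes were called (0%). The gene with an unadjusted p under 0.05 was Cdkn2b, with a difference between sexes of -0.62 (SE 0.20, adjusted p = 0.999), from 2 residual degrees of freedom and few libraries per sex. Those degrees of freedom come only from alpha replicates 1 and 2 and beta replicates 1 and 2. Each of these pairs shares a number in its titles, so the SE may measure technical spread and not spread between animals.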

How the data were processed

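The 40 genes, the wider list and the tests were chosen with earlier results of these data known. Values are RPKM as deposited by the authors. The tools were STAR 2.5, featureCounts and edgeR 3.14.0 on build GRCm38.p4, per the submitters' processing notes. Their strand setting and annotation were not given in the sources used here. Libraries were made with the TruSeq v2 kit per the labels' protocols, which does not mark strand. Of 46959 entries, 27 had names turned into dates and 4 with repeated names were left out.

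Reads were recovered from the steps in the deposited RPKM values with exon lengths from GENCODE M21. Of 25353 genes matched by symbol, 19911 (78.5%) came out whole in all 8 libraries within 0.01 of a read. For 6382 genes the length was solved from the steps, which gave reads for 26786 genes with 493 of them above 0 in 1 library only. For 30 of the 40 genes the length came from the annotation, for 10 it was solved. Recovered reads and the library size implied by the steps agreed to a ratio of 1.0002 in each library.

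The main test was limma 3.58.1 (lmFit, eBayes with trend; R 4.3.3) on log2(RPKM + 0.5), with a filter of at least 1 RPKM in at least 2 libraries, all 8 libraries in 1 fit, and cell group and sex as terms. A fit on group-by-sex means tested the difference between sexes. The text gives a value in every library for genes called between cell groups, the D cyclins, the 6 inhibitors, Mki67 and Top2a, and, of the wider list, the 3 largest called rises and falls per comparison. Counting intervals are exact Poisson (95%), and limits use 3 reads. Alternatives numbered 20 and changed the added constant, the filter, the scaling, the model terms and the libraries, with limma voom on recovered reads among them. The code was tested on simulated data. Genome positions come from GENCODE M21 and promoters from RefSeq (GRCm38.p6), both on GRCm38.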

Additional observations from a re-analysis of the deposited data

How the results depend on the processing

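Counts of called genes depended on the setting. Between transdifferentiated and beta cells the count of 1 became 2 without the filter on low values, 2 with a term for the letter b (Pcna was added, -0.47) and 0 with only the libraries of both groups in the fit, and it ranged from 0 to 3 when single libraries were left out (0 without beta replicate 1 or 3, and 3 without transdifferentiated replicate 2). Between transdifferentiated and alpha cells the count of 6 became 2 with a filter at a mean of 10 RPKM, where only 6 of the 40 genes were tested, and 2 with quantile normalization, and ranged from 4 to 8 without single libraries. Between alpha and beta cells the count of 10 became 6 with the filter at 10 RPKM, where 6 were tested, and ranged from 3 to 11 without single libraries, with 3 without alpha replicate 3. The cause of these changes was not tested apart from the number of genes tested. With 1 library of a group left, that library is assumed to vary like the others. Counts by sex stayed at 0 in all alternatives run, and the difference between sexes could not be estimated without alpha replicate 3 or beta replicate 3.

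Values that changed sign were uncalled in the settings that turned them. Against beta cells these were Cdk4 (-0.125 with median-ratio scaling, -0.105 with a term for the letter b, -0.062 to 0.069 without single libraries), Mcm4 (-0.066 with median-ratio scaling, -0.119 with quantile normalization, -0.091 to 0.185 without single libraries), Cdkn2b (-0.005 with quantile normalization, -0.175 to 0.581 without single libraries) and Mcm5 (-0.075 with quantile normalization). Without single libraries Cdkn2c ranged from -0.897 to 0.093, E2f1 from -0.147 to 0.085 and Mcm2 from -0.207 to 0.025. Against alpha cells, median-ratio scaling and quantile normalization gave -0.028 and -0.060 for Ccnd2, -0.054 and -0.090 for Ccnd3 and -0.023 and -0.064 for Cdkn1b, and without single libraries Cdkn2b ranged from -0.070 to 0.686 and Cdkn2c from -0.946 to 0.045. Values on under 10 reads in the transdifferentiated libraries are limited by depth. Sex links libraries across the groups and was a term in the main test, and without it the counts stayed at 1, 6 and 10. No paired analysis beyond the sex term was run. Replicate numbers were given in accession order and pair no libraries. The labels do not say whether libraries of the same sex came from the same pool of animals, so sex and pool cannot be told apart.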
